A study of Homo sapiens with 9 samples.

Results

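The 42 genes described here encode factors that build ribosomes in the nucleolus: RNA polymerase I subunits and cofactors, the core proteins of the small nucleolar ribonucleoproteins (snoRNPs), nucleolar phosphoproteins, and assembly factors of both ribosomal subunits. They are the rows of the count files whose Ensembl identifiers map to 42 chosen gene symbols, out of 58395 identifiers in each file. All 42 were matched, and all 42 were among the 16575 genes that passed the filter on low counts and were tested.

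RNA polymerase I transcribes one long precursor of the ribosomal RNAs from the ribosomal DNA repeats inside the nucleolus. Box C/D and box H/ACA snoRNPs then modify that precursor, the small-subunit processome folds and cleaves it around the future 18S rRNA, and separate sets of factors mature the pre-40S and pre-60S particles and hand them to the cytoplasm. Production of these factors is coupled to growth and proliferation, and many of their promoters carry an E-box, the sequence bound by MYC with MAX and by other basic helix-loop-helix proteins.

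RNA was sequenced from MDA-MB-231, an established human triple-negative breast cancer line, 96 h after reverse transfection of siRNA in serum-containing DMEM. Cells received siRNA 2 against SKP2 (SKP2-2), siRNA 1 against SKP2 (SKP2-1) or a nontargeting siRNA (NC), with 3 libraries in each group and no other treatment. SKP2 is the F-box protein that brings substrates such as p27 to the SCF ubiquitin ligase. The labels do not say whether libraries of a group came from separate cultures, and a p-value here reflects only how much the libraries vary, which may be technical.

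The labels name SKP2 as the target, although the design text names ZIP7 (SLC39A7). SKP2 RNA stood at 6.09, 5.69 and 6.10 CPM (the library's counts per M gene counts, scaled by TMM) in the SKP2-2 libraries and 3.51, 3.31 and 3.91 CPM in the SKP2-1 libraries, against 57.5, 63.8 and 64.8 CPM in NC. It was 10.4 times lower with SKP2-2 and 17.3 times lower with SKP2-1, whereas SLC39A7 passed the threshold with neither siRNA (edgeR adjusted p = 0.0868 and 0.936). The libraries held 35.5 to 49.9 M gene counts. The mesenchymal markers VIM, CD44, AXL, FN1 and CAV1 summed to between 6085 and 6596 CPM over the 9 libraries, although single markers moved (for example AXL by -1.15 on the log2 scale with SKP2-1, and FN1 by -0.61 with SKP2-2 and 0.80 with SKP2-1), and the receptors ESR1 and PGR stayed below 1 CPM. Immune markers summed to 2.51 to 2.86 CPM with SKP2-2, 3.30 to 3.99 CPM with SKP2-1 and 1.86 to 2.24 CPM in NC. Luminal and epithelial markers summed to 23.0 to 26.2 CPM with SKP2-2, 30.1 to 31.2 CPM with SKP2-1 and 31.3 to 32.7 CPM in NC. Endothelial markers summed to 3.40 to 4.35 CPM with SKP2-2, 8.64 to 10.2 CPM with SKP2-1 and 3.79 to 4.27 CPM in NC. Among these, CD3E had at most 1 count in a library and CDH5 at most 4. The part of these markers in the results below was not tested. The third principal component (11.6% of the variance) ran within groups, with SKP2-2 replicate 3 (-14.6) and NC replicate 1 (-30.3) toward one end and SKP2-2 replicate 1 (21.7) and NC replicate 3 (21.2) at the other. For the tenth of genes richest in GC, the median log2 ratio to the mean of all libraries was 0.43 in SKP2-2 replicate 3 and -0.09 in SKP2-2 replicate 1, and 0.29 in NC replicate 1 and -0.39 in NC replicate 3.

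Most members that changed were lower in the knockdown libraries. With SKP2-2, 19 of 42 members were lower and 6 were higher at an edgeR adjusted p below 0.05, with a median log2 fold change of -0.17 over the members. Over all 16575 genes in that comparison 24.1% were lower and 25.2% were higher, 49.4% in either direction, with a median of 0.03. With SKP2-1, 27 of 42 members were lower and 3 were higher, with a median of -0.24. The background there was 20.5% lower and 25.0% higher, 45.5% in either direction, with a median of 0.02. Both comparisons use the same NC libraries, so they are not independent of each other. The changes were small beside that of SKP2 itself. Member log2 fold changes lay between -1.11 and 0.38 with SKP2-2 and between -0.96 and 0.39 with SKP2-1. In bulk RNA, fewer cells of a kind and less RNA per cell cannot be told apart, and all levels are relative to the total of the library.

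**Figure D1:**
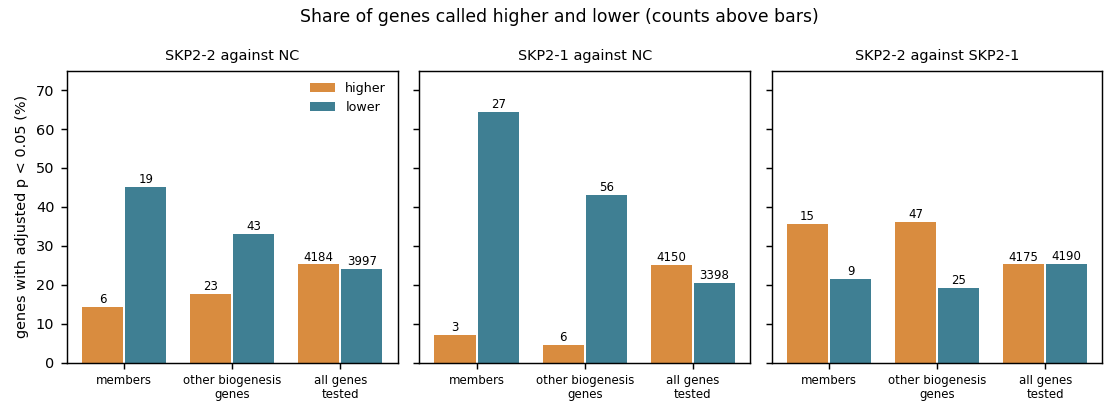
Share of genes, in percent, called higher (orange) or lower (teal) at an edgeR adjusted p below 0.05, for the 42 members, 130 other ribosome biogenesis genes and all 16575 genes tested, with counts above the bars. In SKP2-2 against NC and SKP2-1 against NC the lower bar of the members (19 and 27 genes) is the taller, while over all genes the higher bar is the taller (4184 and 4150 genes).

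The members' share of all gene counts gave the same picture without any fold change. It was 0.647%, 0.618% and 0.601% in the SKP2-2 libraries and 0.551%, 0.543% and 0.549% in the SKP2-1 libraries, against 0.661%, 0.686% and 0.696% in NC. Every knockdown library was below every NC library. NCL and NPM1, the most abundant members, did not carry the whole of it: without them the share was 0.431%, 0.422% and 0.412% with SKP2-2, 0.396%, 0.392% and 0.395% with SKP2-1, and 0.458%, 0.469% and 0.474% in NC.

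Per kilobase of annotated exons, the members spanned a wide range of levels. NPM1 stood highest in all groups, with 278 CPM per kb in SKP2-2, 266 in SKP2-1 and 299 in NC. NCL, DDX21, NOP10, NOLC1 and FBL followed in NC, between 147 and 86.2 CPM per kb, and WDR12 was the lowest but one at 5.59 CPM per kb. NCL, second in NC, had 75.6 CPM per kb with SKP2-1, below NOP10 and DDX21 in that group, and 130 CPM per kb with SKP2-2. NOP2 was near 0.2 CPM per kb in each group. Of its exon bases, 54.4% are shared on the same strand with AC006064.6, a gene listed at 0 counts in all libraries, and reads falling in shared bases can be lost as ambiguous.

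**Figure D2:**
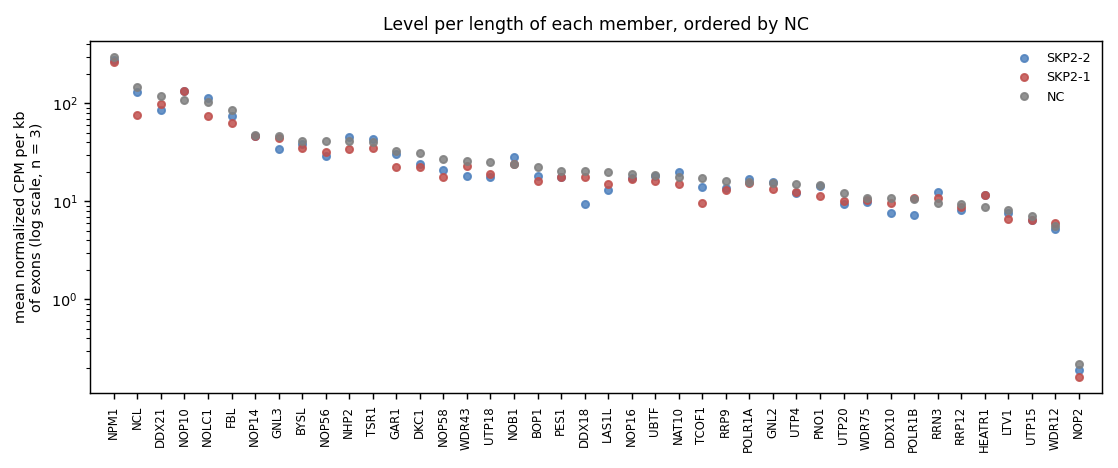
Mean normalized CPM per kilobase of exons (log axis) of each member in SKP2-2 (blue), SKP2-1 (red) and NC (grey), 3 libraries each, ordered by the NC level. NPM1 lies highest at 278, 266 and 299 CPM per kb, NOP2 lies far below the other members, and NCL shows the widest gap between the siRNAs among the 6 members highest in NC.

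An E-box, CACGTG, which reads the same on both strands, was searched in RefSeq promoters of GRCh38.p14, from 250 bases before to 50 bases after each annotated start. Of the 36 members with an entry, 18 held it, against 29 of 113 other ribosome biogenesis genes (25.7%), 1392 of 11542 tested genes (12.1%) and 2396 of 27305 genes in the table (8.77%). NOLC1, DDX18, NOP58, TCOF1, BOP1 and RRP12 had no entry. The sites lay close to the start: of 20 sites, 12 began within the 50 bases after it and 6 within the 50 bases before it. Windows of 30 bases are shown for members that fell with both siRNAs (UTP18, FBL, DDX21 and WDR43), for NOP10, which rose with both, and for NAT10, which moved in opposite directions. They are written 5′ to 3′ on the strand of the gene, with the E-box in capitals.
UTP18: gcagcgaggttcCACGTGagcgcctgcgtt
FBL: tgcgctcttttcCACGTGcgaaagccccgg
DDX21: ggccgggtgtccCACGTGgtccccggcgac
WDR43: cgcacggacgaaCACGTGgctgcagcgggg
NOP10: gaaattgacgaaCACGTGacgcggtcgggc
NAT10: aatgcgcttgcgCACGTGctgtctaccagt
The UTP18 window is chr17:51260538-51260567 on the plus strand, the FBL window chr19:39846356-39846385 on the minus strand and the DDX21 window chr10:68956604-68956633 on the plus strand. The WDR43 window is chr2:28894658-28894687 on the plus strand, the NOP10 window chr15:34343130-34343159 on the minus strand and the NAT10 window chr11:34105602-34105631 on the plus strand.

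Members with and without the E-box overlapped widely in their changes. With SKP2-2, 9 of the 18 members with it were lower and 2 higher (median log2 fold change -0.20), against 6 lower and 4 higher of the 18 without it (median -0.11). With SKP2-1, 14 were lower and 1 higher with the E-box (median -0.27), against 9 lower and 2 higher without it (median -0.16). Among all genes tested, 24.1% were lower and 25.2% higher with SKP2-2, and 20.5% lower and 25.0% higher with SKP2-1. The largest falls, those of NCL with SKP2-1 and DDX18 with SKP2-2, were in a gene without the E-box in its window and in a gene with no entry. A match is only a string of letters and says nothing about binding in these cells. MYC RNA itself stood at 138, 159 and 197 CPM in SKP2-2, 127, 125 and 126 CPM in SKP2-1, and 153, 103 and 98.05 CPM in NC, and passed the threshold in neither comparison with NC (edgeR adjusted p = 0.0945 and 0.737).

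Members of the RNA polymerase I machinery did not move together. POLR1B, the second-largest subunit (ENSG00000125630, chromosome 2, 112541915 to 112577150), had 45.1, 46.4 and 45.5 CPM in SKP2-2, 67.8, 69.3 and 67.2 CPM in SKP2-1, and 63.4, 67.2 and 71.2 CPM in NC. The SKP2-2 libraries lay below all others, and the SKP2-1 and NC libraries overlapped. POLR1B fell 1.47 times with SKP2-2 (log2 fold change -0.56, SE 0.05, edgeR adjusted p = 8.3e-07), was not called with SKP2-1 (0.02, SE 0.05, adjusted p = 0.791), and the siRNAs differed (SKP2-2 over SKP2-1 -0.58, adjusted p = 5.65e-07). RRN3, the TIF-IA factor that makes the polymerase competent to initiate (chromosome 16, 15060022 to 15094317), had 52.4, 51.8 and 49.8 CPM in SKP2-2, 45.1, 45.5 and 45.5 CPM in SKP2-1, and 38.1, 39.5 and 41.96 CPM in NC. No library of a group overlapped another group. RRN3 rose 1.29-fold with SKP2-2 (log2 fold change 0.36, SE 0.05) and 1.14-fold with SKP2-1 (0.18, SE 0.05), with edgeR adjusted p of 4.44e-05 and 0.00813. It has 2 annotated pseudogenes by name, between which reads could be split.

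The largest subunit, POLR1A, had 232, 235 and 226 CPM in SKP2-2, 198, 217 and 215 CPM in SKP2-1, and 208, 212 and 213 CPM in NC. Its rise with SKP2-2 was 1.09-fold (log2 fold change 0.13, SE 0.04, edgeR adjusted p = 0.0297) and was called in 11 of 20 fits. The call was lost without NC replicate 1 (0.109) or 2 (0.130), and without SKP2-2 replicate 1 (0.0808) or 2 (0.115). It was also lost with RLE scaling (0.104), DESeq2 (0.103), a filter of 1 CPM (0.0959), the 6 libraries compared (0.104) or a replicate block (0.129). UBTF, the upstream binding factor that keeps the ribosomal DNA open, had 126, 129 and 129 CPM in SKP2-2, 111, 115 and 113 CPM in SKP2-1, and 131, 132 and 128 CPM in NC. It fell 1.15 times with SKP2-1 (log2 fold change -0.21, SE 0.04, edgeR adjusted p = 0.000673), where all libraries lay below NC, and was not called with SKP2-2 (-0.03, adjusted p = 0.617), where they overlapped. With GC offsets, an alternative chosen after seeing the data, the SKP2-2 value was -0.104 and was called.

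The 3 members from the core of the box C/D snoRNP, which guides 2′-O-methylation of ribosomal RNA, fell with both siRNAs. NOP56 (ENSG00000101361, chromosome 20, 2652145 to 2658393) had 159, 157 and 157 CPM in SKP2-2, 177, 169.9 and 169.8 CPM in SKP2-1, and 207, 224 and 235 CPM in NC. Its partner in the complex, NOP58 (chromosome 2, 202265716 to 202303666), had 72.4, 66.9 and 66.6 CPM in SKP2-2, 58.0, 59.0 and 58.8 CPM in SKP2-1, and 80.0, 92.3 and 95.5 CPM in NC. The methyltransferase fibrillarin, FBL (chromosome 19, 39834458 to 39846414), had 163, 160.5 and 165 CPM in SKP2-2, 139, 132 and 137 CPM in SKP2-1, and 181, 187 and 194 CPM in NC. In each of these genes every knockdown library was below every NC library, and the siRNAs did not overlap each other. NOP56 fell 1.41 times with SKP2-2 and 1.29 times with SKP2-1 (log2 fold changes -0.50 and -0.37, SE 0.05 each, edgeR adjusted p = 2.22e-06 and 3.94e-05). NOP58 and FBL fell more with SKP2-1 (log2 fold changes -0.61 and -0.46) than with SKP2-2 (-0.38 and -0.20). For NOP58 and FBL the siRNAs differed by 0.23 and 0.26 (SKP2-2 over SKP2-1, edgeR adjusted p = 0.00842 and 0.000179). The opposite difference in NOP56 (-0.13, adjusted p = 0.0435) was called in 12 of 20 fits, and without SKP2-1 replicate 1, 2 or 3 it was -0.111, -0.141 and -0.140. It was also lost without NC replicate 2 (-0.130) and without SKP2-2 replicate 2 (-0.127) or 3 (-0.125).

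The box H/ACA core, which carries out pseudouridylation, was split. DKC1, the pseudouridine synthase dyskerin (ENSG00000130826, chromosome X, 154762742 to 154777689), had 104, 96.9 and 101 CPM in SKP2-2, 95.8, 91.9 and 93.004 CPM in SKP2-1, and 124, 129.6 and 138 CPM in NC. All knockdown libraries lay below NC, a fall of 1.30 times with SKP2-2 and 1.39 times with SKP2-1 (log2 fold changes -0.38 and -0.48, SE 0.05 each, edgeR adjusted p = 2.56e-05 and 3.27e-06). GAR1 (chromosome 4, 109815510 to 109824740), which is needed for catalysis by the assembled particle, had 61.7, 61.9 and 63.2 CPM in SKP2-2, 47.9, 45.0 and 45.9 CPM in SKP2-1, and 65.7, 69.6 and 63.5 CPM in NC. It fell 1.43 times with SKP2-1 (log2 fold change -0.52, SE 0.05, edgeR adjusted p = 1.7e-06), was not called with SKP2-2 (-0.09, adjusted p = 0.15), and the siRNAs differed (SKP2-2 over SKP2-1 0.43, adjusted p = 8.29e-06). NOP10, the smallest core protein, went the other way. It had 76.3, 75.9 and 69.1 CPM in SKP2-2, 77.8, 66.8 and 77.8 CPM in SKP2-1, and 55.9, 60.1 and 64.4 CPM in NC, with every knockdown library above every NC library. NOP10 rose 1.23-fold with each siRNA (log2 fold changes 0.29 with SKP2-2 and 0.30 with SKP2-1, SE 0.07 each, edgeR adjusted p = 0.00365 and 0.00332).

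NHP2, the remaining H/ACA protein, could not be resolved. It had 55.7, 72.5 and 78.1 CPM in SKP2-2, 52.9, 51.2 and 50.9 CPM in SKP2-1, and 80.6, 64.0 and 40.9 CPM in NC. The NC libraries alone spanned more than the difference between groups, and neither comparison with NC was called (edgeR adjusted p = 0.65 and 0.46). NHP2 is rich in GC (57.1% of its longest transcript), and its order among the NC and SKP2-2 libraries is that of the GC shift described above, whose part in this was not tested. Antisense exons overlap 27.4% of the exon bases of NHP2, and the part of this overlap was not tested either. Across the 42 members, GC content and the log2 ratio of NC replicate 1 to NC replicate 3 had a Pearson r of 0.61 and a Spearman rho of 0.67. These points share the same 2 libraries.

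**Figure D3:**
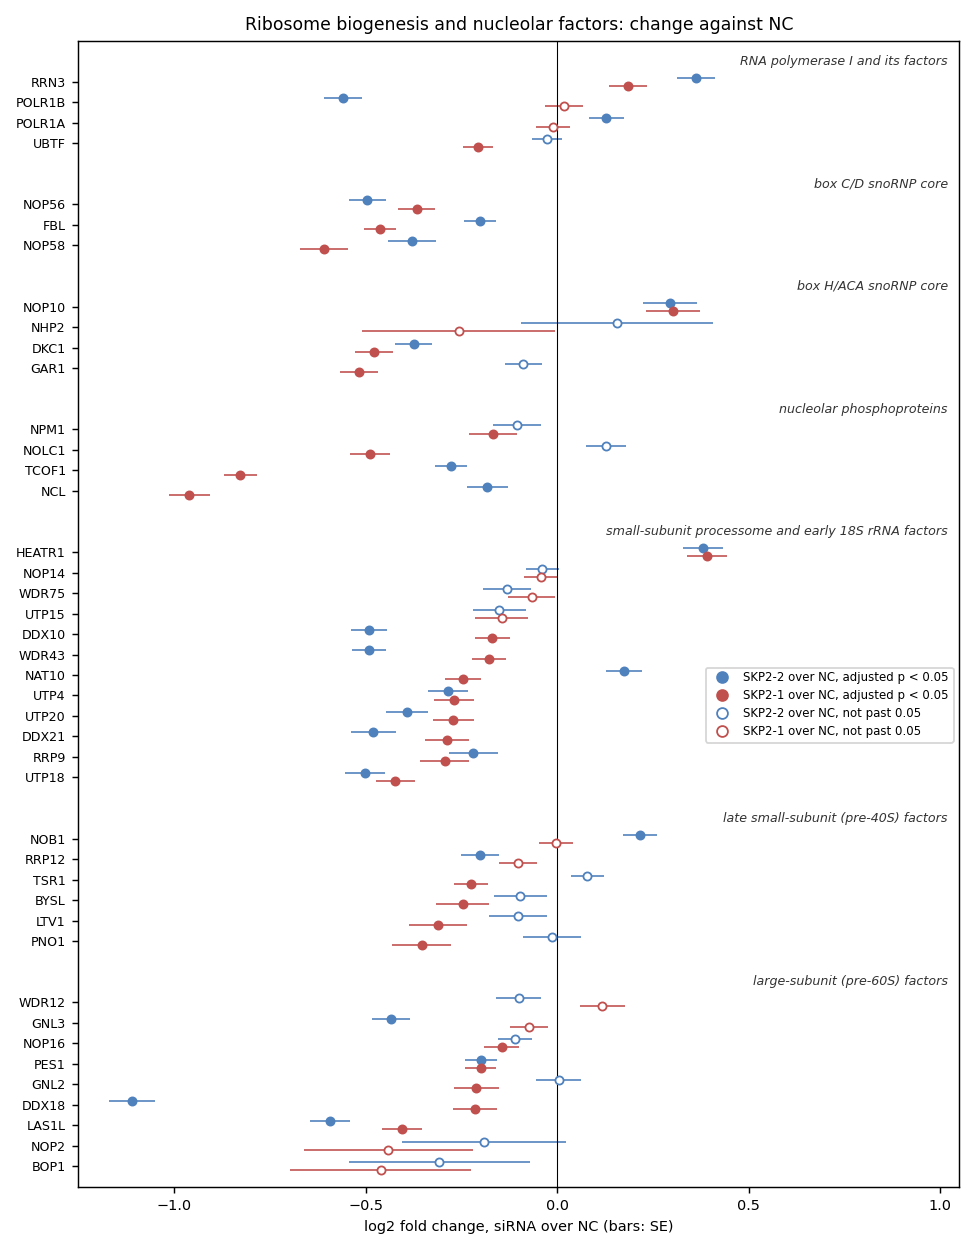
Log2 fold change over NC of each member, grouped by role, for SKP2-2 (blue, upper mark) and SKP2-1 (red, lower mark), with bars of 1 SE and filled marks for an edgeR adjusted p below 0.05. Box C/D proteins lie left of 0 with both siRNAs, HEATR1, NOP10 and RRN3 lie right of 0 with both, and DDX18 (-1.11 with SKP2-2) and NCL (-0.96 with SKP2-1) lie farthest left.

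The nucleolar phosphoproteins held the largest changes with SKP2-1. NCL, nucleolin, which binds nascent pre-rRNA (ENSG00000115053, chromosome 2, 231453531 to 231483641), had 948, 885 and 862 CPM in SKP2-2, 527, 516 and 527 CPM in SKP2-1, and 952, 1049.6 and 1055 CPM in NC. The SKP2-1 libraries were well below all others, and the SKP2-2 libraries lay just below NC. NCL fell 1.95 times with SKP2-1 (log2 fold change -0.96, SE 0.05, edgeR adjusted p = 1.19e-08) and 1.13 times with SKP2-2 (-0.18, SE 0.05, adjusted p = 0.0119). The difference between the siRNAs was 0.78 (SKP2-2 over SKP2-1, SE 0.05, adjusted p = 6.85e-08). The SKP2-2 call was lost without NC replicate 2 (-0.162) or without SKP2-2 replicate 3 (-0.153).

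TCOF1, treacle, which links UBTF and RNA polymerase I to early processing (chromosome 5, 150357629 to 150400308), had 159, 165 and 163 CPM in SKP2-2, 109.7, 114 and 109 CPM in SKP2-1, and 202, 199 and 189 CPM in NC. No groups overlapped, and the order was the same as for NCL. TCOF1 fell 1.77 times with SKP2-1 and 1.21 times with SKP2-2 (log2 fold changes -0.83 and -0.28, SE 0.04 each, edgeR adjusted p = 6.19e-09 and 0.000119), and the siRNAs differed by 0.55 (SKP2-2 over SKP2-1, adjusted p = 2.26e-07). NOLC1, Nopp140, a snoRNP chaperone related to treacle (chromosome 10, 102152176 to 102163871), had 466, 449.9 and 428 CPM in SKP2-2, 291, 292 and 294 CPM in SKP2-1, and 384, 410.2 and 437 CPM in NC. Here the SKP2-1 libraries lay below all others, and the SKP2-2 libraries overlapped NC at the upper end. NOLC1 fell 1.40 times with SKP2-1 (log2 fold change -0.49, SE 0.05, edgeR adjusted p = 5.56e-06), was not called with SKP2-2 (0.13, SE 0.05, adjusted p = 0.0616), and differed between the siRNAs by 0.61 (SKP2-2 over SKP2-1, adjusted p = 5.3e-07). The SKP2-2 value of NOLC1 passed the threshold in 6 of 20 fits, with values of 0.114 to 0.172 in those 6. They include the fits without NC replicate 3 (0.172) and without SKP2-2 replicate 3 (0.158).

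NPM1, nucleophosmin, a histone and pre-ribosome chaperone, had 1153, 1031 and 1014 CPM in SKP2-2, 1026, 997 and 1036 CPM in SKP2-1, and 1068, 1141 and 1229 CPM in NC. Its fall with SKP2-1 was small (log2 fold change -0.17, SE 0.06, edgeR adjusted p = 0.0411) and was called in 13 of 20 fits, with log2 fold changes between -0.235 and -0.116. Leaving out any SKP2-1 library (-0.180 to -0.152), NC replicate 2 (-0.172) or 3 (-0.116), or SKP2-2 replicate 2 (-0.169) ended the call. With SKP2-2 the libraries overlapped NC (-0.10, adjusted p = 0.186), and the call appeared only without SKP2-2 replicate 1 (-0.207) or NC replicate 1 (-0.162). NPM1 has 45 annotated pseudogenes by name, so its counts are uncertain.

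**Figure D4:**
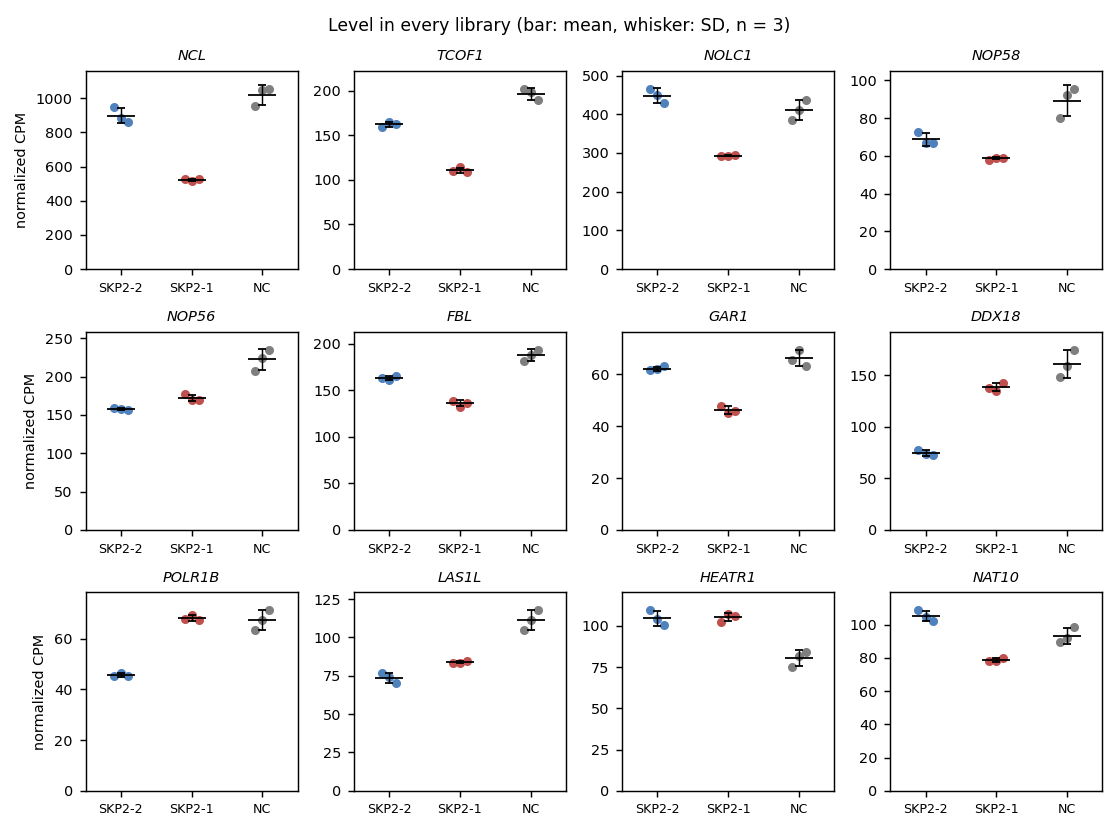
Normalized CPM of 12 members in every library, in SKP2-2 (blue), SKP2-1 (red) and NC (grey), with the mean as a bar and the SD as a whisker (n = 3). In NCL, TCOF1, NOLC1 and GAR1 the SKP2-1 libraries are the lowest, in DDX18, POLR1B and LAS1L the SKP2-2 libraries are the lowest, and in HEATR1 both siRNAs lie above NC.

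Among the 12 factors of the small-subunit processome and early 18S rRNA processing, 7 fell and 2 rose with SKP2-2, and 8 fell and 1 rose with SKP2-1. The shares over all genes were 24.1% lower and 25.2% higher with SKP2-2, and 20.5% and 25.0% with SKP2-1. UTP18, a WD40 protein of the processome (ENSG00000011260, chromosome 17, 51260528 to 51297936) whose promoter window is printed above, had 49.9, 46.3 and 49.3 CPM in SKP2-2, 50.7, 52.2 and 50.9 CPM in SKP2-1, and 64.6, 69.6 and 71.9 CPM in NC. All knockdown libraries lay below NC. UTP18 fell 1.42 times with SKP2-2 and 1.34 times with SKP2-1 (log2 fold changes -0.50 and -0.42, SE 0.05 each, edgeR adjusted p = 3.4e-06 and 1.94e-05), and the siRNAs were not called apart (adjusted p = 0.22). DDX10, a DEAD-box helicase, had 67.0, 67.1 and 66.1 CPM in SKP2-2, 85.5, 80.7 and 84.2 CPM in SKP2-1, and 89.1, 98.01 and 94.4 CPM in NC. Its fall was 1.41 times with SKP2-2 (log2 fold change -0.49, SE 0.05, edgeR adjusted p = 1.52e-06) and smaller with SKP2-1 (-0.17, SE 0.05, adjusted p = 0.00915). The SKP2-1 call was lost without NC replicate 2 (-0.137) or SKP2-1 replicate 2 (-0.144).

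WDR43, a processome subunit of the complex that binds the 5′ end of the precursor, and DDX21, a helicase that also acts at RNA polymerase II genes, followed the same order as DDX10. WDR43 averaged 75.8 ± 3.19 CPM in SKP2-2, 94.1 ± 1.37 CPM in SKP2-1 and 106 ± 2.63 CPM in NC (SD, n = 3 each), and DDX21 averaged 433 ± 20.6, 494 ± 5.64 and 604 ± 47.4 CPM in those groups. The log2 fold changes were -0.49 and -0.48 with SKP2-2 and -0.18 and -0.29 with SKP2-1, all called by edgeR, with the largest adjusted p at 0.00508. UTP20, a large scaffold protein, fell with SKP2-2 (log2 fold change -0.39) and SKP2-1 (-0.27), as did UTP4 (-0.29 and -0.27), another subunit of the complex at the 5′ end, and RRP9 (-0.22 and -0.29), the U3 snoRNP protein, whose SKP2-2 value was -0.431 with GC offsets. The RRP9 call with SKP2-2 (edgeR adjusted p = 0.012) was lost without NC replicate 2 (-0.188) or SKP2-2 replicate 2 (-0.181). UTP15, WDR75 and NOP14 were not called in either comparison, with log2 fold changes from -0.15 to -0.04. These values moved with single libraries and with the settings of the fit. With a filter of 1 CPM, UTP15 was called lower with both siRNAs (-0.181 with SKP2-2 and -0.177 with SKP2-1) and WDR75 with SKP2-2 (-0.161). On the 6 libraries compared, UTP15 (-0.211), WDR75 (-0.133) and NOP14 (-0.112) were called lower with SKP2-1. UTP15 was called without NC replicate 1 (-0.233 with SKP2-2 and -0.231 with SKP2-1) and without SKP2-2 replicate 1 (-0.245 and -0.178), and with SKP2-1 also with GC offsets (-0.117). WDR75 was called with SKP2-2 without NC replicate 1 (-0.193) or SKP2-2 replicate 1 (-0.227). NOP14 was called with SKP2-2 without SKP2-2 replicate 1 (-0.105), and with SKP2-1 with GC offsets (-0.0742).

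HEATR1, the human counterpart of yeast Utp10 (ENSG00000119285, chromosome 1, 236549005 to 236604504), rose with both siRNAs. It had 109, 104 and 100.4 CPM in SKP2-2, 102, 107 and 106 CPM in SKP2-1, and 75.04, 81.7 and 84.3 CPM in NC, and no knockdown library overlapped NC. The rise was 1.30-fold with SKP2-2 and 1.31-fold with SKP2-1 (log2 fold changes 0.38 and 0.39, SE 0.05 each, edgeR adjusted p = 4.41e-05 and 4.01e-05). Antisense exons overlap 23.2% of its exon bases, and the strand used in counting is not given in the sources used here. NAT10, the acetyltransferase that forms N4-acetylcytidine in 18S rRNA (chromosome 11, 34105602 to 34147670), was the only member called in opposite directions against NC. It had 108, 105 and 102 CPM in SKP2-2, 77.8, 78.1 and 79.8 CPM in SKP2-1, and 89.3, 91.8 and 98.5 CPM in NC, and no groups overlapped. NAT10 rose 1.13-fold with SKP2-2 (log2 fold change 0.17, SE 0.05, edgeR adjusted p = 0.00719) and fell 1.19 times with SKP2-1 (-0.25, SE 0.05, adjusted p = 0.000744). The siRNAs differed by 0.42 (SKP2-2 over SKP2-1, SE 0.05, adjusted p = 6.59e-06). Without SKP2-2 replicate 1 the rise with SKP2-2 was 0.109 and was still called.

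Of the 6 late small-subunit factors, 4 fell and none rose with SKP2-1, and 1 fell and 1 rose with SKP2-2. With SKP2-2 that was 16.7% each way, below the 24.1% lower and 25.2% higher over all genes. With SKP2-1 the falls made up 66.7%, against 20.5% lower and 25.0% higher over all genes. PNO1, the partner of the endonuclease NOB1 at the 3′ end of 18S rRNA, had 34.7, 40.04 and 41.8 CPM in SKP2-2, 30.8, 30.2 and 31.0 CPM in SKP2-1, and 42.6, 39.5 and 35.7 CPM in NC. It fell 1.28 times with SKP2-1 (log2 fold change -0.35, SE 0.08, edgeR adjusted p = 0.0019), and the SKP2-2 libraries overlapped NC (-0.01, adjusted p = 0.896). LTV1 and BYSL, which accompany pre-40S particles on their way out of the nucleus, fell with SKP2-1 (log2 fold changes -0.31 and -0.25) and were not called with SKP2-2 (-0.10 for each). With GC offsets BYSL was called with SKP2-2 as well (-0.211). The GTPase-like factor TSR1 fell with SKP2-1 (-0.23) and was not called with SKP2-2 (0.08), though it was called higher there without NC replicate 3 (0.111). In LTV1, 34.8% of exon bases are shared on the same strand with other annotated genes, mainly AL049844.3, listed at 0 counts in all libraries. NOB1, which makes the final cut of 18S rRNA, had 59.8, 61.0 and 58.4 CPM in SKP2-2, 51.2, 50.6 and 52.0 CPM in SKP2-1, and 50.1, 51.5 and 52.7 CPM in NC. It rose with SKP2-2 (log2 fold change 0.22, SE 0.04, edgeR adjusted p = 0.0012), while the SKP2-1 libraries lay within the NC range. Antisense exons cover 20.2% of NOB1 and 20.8% of TSR1. RRP12, a HEAT-repeat export factor, fell with SKP2-2 (-0.20, adjusted p = 0.00409) and was not called with SKP2-1 (-0.10, adjusted p = 0.108). With GC offsets RRP12 was called with both (-0.346 with SKP2-2 and -0.127 with SKP2-1), and without NC replicate 3 it was called with SKP2-1 (-0.152).

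The largest change of any member with SKP2-2 was in a large-subunit factor. DDX18, a nucleolar DEAD-box helicase (ENSG00000088205, chromosome 2, 117814650 to 117832379), had 77.9, 73.5 and 72.4 CPM in SKP2-2, 138, 135 and 143 CPM in SKP2-1, and 148, 159.5 and 175 CPM in NC. The SKP2-2 libraries were far below the others, and the SKP2-1 libraries lay just below NC. DDX18 fell 2.16 times with SKP2-2 (log2 fold change -1.11, SE 0.06, edgeR adjusted p = 6.76e-09) and less with SKP2-1 (-0.22, SE 0.06, adjusted p = 0.00809). The difference of -0.89 was the largest between the siRNAs among the members (SKP2-2 over SKP2-1, SE 0.06, adjusted p = 4.4e-08). DDX18 has 5 annotated pseudogenes by name, between which reads could be split. Besides RRN3 and NPM1, the same holds for NOP56 (3 pseudogenes), NCL, DDX10, NHP2 and PES1 (2 each), and GNL2 and LTV1 (1 each). LAS1L, the endonuclease that cuts the second internal transcribed spacer (chromosome X, 65512582 to 65534775), had 76.7, 74.2 and 70.1 CPM in SKP2-2, 83.4, 83.5 and 84.7 CPM in SKP2-1, and 105, 111 and 118 CPM in NC. No groups overlapped. LAS1L fell 1.51 times with SKP2-2 and 1.32 times with SKP2-1 (log2 fold changes -0.59 and -0.41, SE 0.05 each, edgeR adjusted p = 6.64e-07 and 2.48e-05).

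GNL3, nucleostemin, a nucleolar GTPase, averaged 115 ± 4.14 CPM in SKP2-2, 147 ± 0.890 CPM in SKP2-1 and 155 ± 9.63 CPM in NC (SD, n = 3 each). It fell with SKP2-2 (log2 fold change -0.43, SE 0.05, edgeR adjusted p = 9.11e-06) and was not called with SKP2-1 (-0.07, adjusted p = 0.247). The SKP2-1 value was called lower in 6 of 20 fits, among them those without NC replicate 1 (-0.137) or SKP2-2 replicate 1 (-0.109) and with GC offsets (-0.0687). Its relative GNL2 had 89.7 ± 5.50 CPM in SKP2-2, 77.3 ± 1.09 CPM in SKP2-1 and 89.5 ± 6.46 CPM in NC, and fell with SKP2-1 (-0.21, adjusted p = 0.00987). The PeBoW complex of PES1, BOP1 and WDR12 is needed for processing toward 5.8S and 28S rRNA. In the main edgeR fit only PES1 was called against NC, and differences between these genes were not tested. PES1 fell 1.15 times with each siRNA (log2 fold change -0.20, SE 0.04), and with GC offsets its SKP2-2 value was -0.342. WDR12 was not called with SKP2-2 (-0.10) or SKP2-1 (0.12). It was called lower with SKP2-2 without NC replicate 1 (-0.172) or SKP2-2 replicate 1 (-0.166), and higher with SKP2-1 without NC replicate 3 (0.174) or with GC offsets (0.134). BOP1 had 52.8, 69.2 and 79.0 CPM in SKP2-2, 61.5, 61.4 and 58.0 CPM in SKP2-1, and 109.7, 78.0 and 61.7 CPM in NC. With a spread of this size in NC, its log2 fold changes of -0.31 with SKP2-2 and -0.46 with SKP2-1 were not called. With GC offsets BOP1 was called with SKP2-2 (-0.586) and with SKP2-1 (-0.408). NOP16 fell with SKP2-1 (-0.14, edgeR adjusted p = 0.0185), a call kept in 17 of 20 fits. It was lost without SKP2-1 replicate 1 (-0.131) or 2 (-0.145), and with no filter on low counts (-0.141). With SKP2-2 NOP16 was not called (-0.11, edgeR adjusted p = 0.0601), though it was called lower in 6 of 20 fits. The siRNAs were not called apart for NOP16 (SKP2-2 over SKP2-1 0.03, edgeR adjusted p = 0.549). NOP2, the m5C methyltransferase of 28S rRNA, rested on 28 to 46 counts per library and was not called.

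Between the siRNAs, 15 members were higher and 9 were lower with SKP2-2 than with SKP2-1, at a background of 25.2% higher, 25.3% lower and 50.5% in either direction over all genes. The median difference over the members was 0.07 on the log2 scale, against 0.03 over all genes. The phosphoproteins NCL, NOLC1 and TCOF1 held the largest positive differences (0.78, 0.61 and 0.55), followed by GAR1 and NAT10 (0.43 and 0.42). DDX18 and POLR1B held the largest negative ones (-0.89 and -0.58), followed by GNL3, DDX10 and WDR43 (-0.36, -0.32 and -0.31). Differences of HEATR1, NOP10, UTP15, UTP4, PES1 and NOP14 lay within 0.02 of 0, with SE of 0.04 to 0.07.

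**Figure D5:**
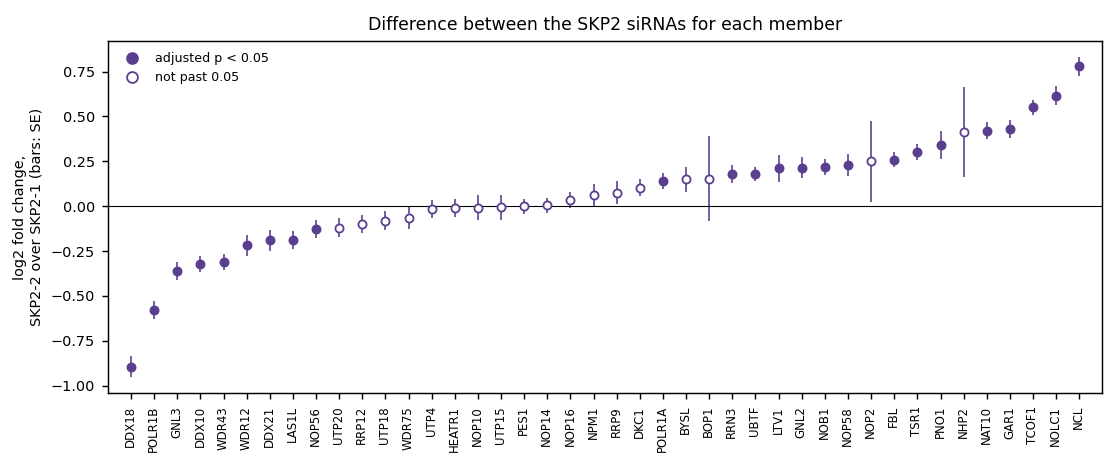
Log2 fold change of SKP2-2 over SKP2-1 for each of the 42 members in increasing order, with bars of 1 SE and filled marks for an edgeR adjusted p below 0.05. DDX18 (-0.89) and NCL (0.78) stand at the ends, and 24 of 42 members are called, 15 of them higher with SKP2-2.

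A list of 130 other ribosome biogenesis genes was taken by function, but with earlier results of these data known, so it is not independent support. With SKP2-2, 43 were lower and 23 higher (median log2 fold change -0.05), and with SKP2-1, 56 were lower and 6 higher (median -0.18). Set against the background shares above, the lower share of these genes was 33.1% with SKP2-2 and 43.1% with SKP2-1. The higher share was 17.7% with SKP2-2 and 4.62% with SKP2-1. In either direction 50.8% were called with SKP2-2 and 47.7% with SKP2-1, near the 49.4% and 45.5% over all genes. RRP1B, a nucleolar protein bound to pre-60S particles, fell most with SKP2-2: it averaged 34.8 ± 3.21 CPM in SKP2-2, 71.9 ± 1.79 CPM in SKP2-1 and 84.6 ± 5.68 CPM in NC (log2 fold changes -1.28 and -0.23). RPF2, which in yeast helps bring the 5S particle into the pre-60S subunit, fell by 1.00 on the log2 scale with SKP2-2, and the processome subunit NOL11 fell by 0.96. TMA16, associated with pre-60S particles, fell with SKP2-2 and with SKP2-1 (-0.96 and -0.74).

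With SKP2-1, the largest fall outside the members was in BMS1, a processome GTPase, with 184 ± 3.48 CPM in SKP2-2, 99.1 ± 2.37 CPM in SKP2-1 and 176 ± 11.4 CPM in NC (log2 fold change -0.83 with SKP2-1, edgeR adjusted p = 2.31e-08). BMS1 has many annotated pseudogenes, so its counts are uncertain. NAF1, an H/ACA assembly factor, EXOSC9, a core subunit of the RNA exosome, and URB1, a pre-60S factor, fell with SKP2-1 by 0.81, 0.80 and 0.78 on the log2 scale. Genes that rose included MPHOSPH6, an exosome cofactor for 5.8S rRNA (0.55 with SKP2-2 and 0.31 with SKP2-1), and POLR1D, a subunit shared by RNA polymerases I and III (0.38 and 0.24). NMD3, the export adaptor of the 60S subunit, rose with SKP2-1 (0.21, edgeR adjusted p = 0.0095), a call lost without SKP2-1 replicate 3 (0.188). UTP25, a processome factor, rose with SKP2-2 (0.33, adjusted p = 0.000644), as did PPAN (0.42, adjusted p = 0.0087), a pre-60S factor at about 3 CPM whose exons overlap those of the read-through gene PPAN-P2RY11. With GC offsets PPAN was not called (0.151).

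Some members also host snoRNAs, the guide RNAs of the snoRNPs, inside their own genes. On the same strand, 7 of 42 members (16.7%) contain an annotated snoRNA gene, namely NOP56, NOP58, DKC1, NCL, WDR43, TSR1 and GNL3, against 272 of 16575 tested genes (1.64%). Of the host members, 6 of 7 were lower with SKP2-2 and 6 of 7 with SKP2-1, with medians of -0.38 and -0.37. Of the other 35 members, 13 were lower with SKP2-2 and 21 with SKP2-1, with medians of -0.11 and -0.22. Over all genes the lower shares were 24.1% and 20.5%. TSR1 was the host not called with SKP2-2, and GNL3 the host not called with SKP2-1. The snoRNA genes themselves had between 0 and 15 counts per library, too few to follow in these libraries.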

How the data were processed

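Each library has 1 deposited file of whole-number counts by Ensembl identifier. The submitters' processing notes name HTSeq 0.6.1 and STAR, DESeq2 1.16.1, and FastQC 0.11.2 beside Trim Galore 0.4.1; settings, genome build, annotation and strand of counting are not given in the sources used here. RNA came from an RNeasy mini kit with DNase I, per the labels' protocols. The counts carry no normalization. Lines for reads outside genes (5.34 to 5.92%) or in several genes (3.87 to 3.97%) were left out of library totals.

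Counts were tested with edgeR 4.0.16 in R 4.3.3: filterByExpr (minimum count 10, minimum total 15), TMM scaling and a robust quasi-likelihood fit on the 9 libraries together, with no term but group. Tests were two-sided, with Benjamini-Hochberg adjustment over 16575 genes and a threshold of 0.05. Levels are TMM-scaled CPM, with the SD of 3 libraries. The method was tested on simulated data, drawn without the GC shift between libraries, so calls under that shift were not covered. Coordinates, exon lengths and overlaps come from GENCODE 29 on GRCh38 by gene identifier, and GC from its longest transcripts.

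Members and gene lists were chosen with earlier results of these data known, so no list was tested. Members were described by role, and library values were given for the 6 largest falls and 3 largest rises in each comparison with NC, members called in opposite directions, the 4 largest differences between the siRNAs and the best known members (POLR1A, UBTF, FBL, NCL and NPM1). PNO1, NOB1, BOP1, NHP2 and the remaining library values were added after seeing them. From the other list the 4 largest rises and falls per comparison were named. Alternatives were RLE scaling, library size alone, no filter, a filter of 1 CPM in at least 3 libraries, DESeq2 1.42.0, limma-voom 3.58.1, fits on the 6 libraries compared, a replicate block and each library left out. Leaving out both NC replicate 1 and SKP2-2 replicate 3, and GC offsets from a lowess curve, were chosen after seeing the data.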

Additional observations from a re-analysis of the deposited data

Results flagged for a closer look

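NAT10, which acetylates 18S rRNA, was called higher with SKP2-2 and lower with SKP2-1 against NC, and the difference between the siRNAs passed the threshold (SKP2-2 over SKP2-1 0.42 on the log2 scale, edgeR adjusted p = 6.59e-06). The rise with SKP2-2 was not called when that comparison was fitted on its 6 libraries alone (0.150, edgeR adjusted p = 0.0525), and it was 0.109 without SKP2-2 replicate 1.

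Among the other ribosome biogenesis genes, 6 were called in opposite directions with a tested difference between the siRNAs. POLR1F, a subunit of RNA polymerase I, had 59.5 ± 2.29 CPM in SKP2-2, 36.2 ± 0.890 CPM in SKP2-1 and 48.1 ± 0.942 CPM in NC (SD, n = 3 each), a difference of 0.72. TSR2, a chaperone of a small-subunit ribosomal protein, had 81.03 ± 1.64 CPM in SKP2-2, 53.0 ± 1.86 CPM in SKP2-1 and 64.8 ± 2.39 CPM in NC, a difference of 0.61. The nucleolar helicase DDX56 differed by 0.41, and its rise with SKP2-2 was not called without SKP2-2 replicate 2 (0.122), on the 6 libraries compared (0.134) or with GC offsets (0.0623). The processome factors UTP11 and WDR36 differed by 0.40 and 0.38. The fall of WDR36 with SKP2-1 (-0.15) was lost without NC replicate 3 (-0.0979) or without SKP2-1 replicate 1 (-0.138), 2 (-0.155) or 3 (-0.144). The rise of UTP11 with SKP2-2 (0.17, edgeR adjusted p = 0.0414) was lost under most alternatives, including each single library of SKP2-1 or SKP2-2 left out (0.0889 without SKP2-2 replicate 1) and NC replicate 1 (0.0899) or 2 (adjusted p = 0.0538). Its fall with SKP2-1 was lost without NC replicate 2 (-0.203) or SKP2-1 replicate 2 (-0.211). NOP9, in yeast a factor for 18S rRNA processing, was the only gene of these 6 that was lower with SKP2-2 and higher with SKP2-1, with a difference of -0.55, and its SKP2-2 call (-0.14) was lost without NC replicate 3 (-0.108) or without SKP2-2 replicate 2 (-0.145) or 3 (-0.112).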

How the results depend on the processing

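Over the alternatives, members lower were 17 to 25 with SKP2-2 and 24 to 32 with SKP2-1, and members higher 4 to 8 and 3 to 4. Counts over all genes moved as well. Genes lower were 3589 to 4656 with SKP2-2 and 2911 to 4291 with SKP2-1, and genes higher 3397 to 4831 and 3341 to 4706. The members' median log2 fold change with SKP2-2 was -0.12 with library size alone, -0.20 with the filter of 1 CPM, and -0.24 (without SKP2-2 replicate 1) to -0.14 (without SKP2-2 replicate 3) with 1 library left out. With SKP2-1 it was -0.30 on the 6 libraries compared and -0.27 to -0.21 with 1 library left out. Between the siRNAs it was 0.10 with library size alone, 0.04 with GC offsets, and 0.05 to 0.10 (without SKP2-2 replicate 2) with 1 library left out. Other ribosome biogenesis genes higher with SKP2-2 numbered 14 on the 6 libraries compared and 15 to 24 with 1 library left out (15 without SKP2-2 replicate 1); with SKP2-1 they numbered 10 with GC offsets and 4 to 10 with 1 library left out (10 without NC replicate 3). Of 3534 values of named genes under 19 alternatives, 3348 stayed called or stayed not called, 103 lost a call and 82 gained one. The 3348 include values called in neither fit, so they are not a count of kept calls. A further 1 turned: BOP1 between the siRNAs, -0.178 with GC offsets. The cause was not tested.

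The labels do not say whether replicate numbers pair the libraries. Same-numbered deviations from the group means correlated at -0.50 to 0.05. With the GC shift within groups, these values cannot decide it. With the replicate block, members lower and higher were 19 and 5 with SKP2-2, 26 and 3 with SKP2-1, and 8 and 14 between the siRNAs. Counts over all genes in the comparisons with NC then lay within the ranges given above.
The median SE of a log2 fold change was 0.09 over all genes. NOP2 had the fewest counts (28 to 46 per library), and the spread between NC libraries limited NHP2 and BOP1, with an SE of 0.24 or 0.25.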
